A study of Mus musculus with 6 samples.

Results

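The genes described here make, break down and respond at the top of the cyclic AMP (cAMP) pathway of the kidney: the vasopressin V2 receptor gene Avpr2, 6 adenylyl cyclase genes (Adcy3, Adcy4, Adcy5, Adcy6, Adcy7 and Adcy9) and 3 cyclic nucleotide phosphodiesterase genes (Pde1a, Pde4a and Pde4d). They were taken by name from a list and are 10 of the 56923 genes counted, of which 18273 had enough reads to be tested. RNA from whole snap-frozen kidneys of male mice was sequenced in 6 libraries, 3 from controls (Pkd1flox/flox.Tet-O-Cre) and 3 from Pkd1 KO mice (Pkd1flox/flox.Pax8rtTA.Tet-O-Cre). Both groups carried floxed Pkd1 alleles and the doxycycline-responsive Cre transgene, and both drank 2 mg/ml doxycycline with 5% sucrose for 14 days, from postnatal day 28 to 42. The KO mice alone carried Pax8rtTA, the doxycycline-dependent activator under the Pax8 promoter, so that Cre acts in tubule cells and other kidney cells keep the gene. Kidneys were taken at 10 weeks. Each library is a whole kidney, in which fewer cells of a type and less RNA per cell cannot be told apart.

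Arginine vasopressin binds the V2 receptor on principal cells of the collecting duct and on the thick ascending limb. The receptor activates the G protein Gs, which stimulates adenylyl cyclases to turn ATP into cAMP. cAMP activates protein kinase A, which places the water channel Aqp2 in the apical membrane and phosphorylates the transcription factor CREB, and phosphodiesterases end the signal by hydrolysing cAMP. In polycystic kidney disease this pathway is known for driving fluid secretion and cell growth in cysts, and V2 receptor antagonists slow the disease.

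Promoters are shown for 4 of these genes because their behaviour in the libraries differed: the receptor, whose reads needed separate handling, Adcy5 and Adcy9, the most reduced cyclases, and Pde1a, the phosphodiesterase that increased. RefSeq (GRCm38.p6) gave 17 start sites for 9 of the 10 genes, each with a window from 250 bases before to 50 after the start, and Adcy6 had no entry. The windows were searched on both strands for the cAMP response element TGACGTCA and for its core TGACG, which also lies inside the full element. Sequences run 5′ to 3′ along the gene, and capitals mark a core, read as TGACG or, from the opposite strand, CGTCA.
Avpr2, chrX:73891852-73892151, plus strand: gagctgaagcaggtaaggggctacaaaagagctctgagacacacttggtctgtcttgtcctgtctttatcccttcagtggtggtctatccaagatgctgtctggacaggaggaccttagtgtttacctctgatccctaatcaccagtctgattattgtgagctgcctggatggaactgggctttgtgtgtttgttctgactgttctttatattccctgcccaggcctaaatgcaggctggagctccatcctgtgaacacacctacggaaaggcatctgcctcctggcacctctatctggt
Adcy5, chr16:35154614-35154913, plus strand: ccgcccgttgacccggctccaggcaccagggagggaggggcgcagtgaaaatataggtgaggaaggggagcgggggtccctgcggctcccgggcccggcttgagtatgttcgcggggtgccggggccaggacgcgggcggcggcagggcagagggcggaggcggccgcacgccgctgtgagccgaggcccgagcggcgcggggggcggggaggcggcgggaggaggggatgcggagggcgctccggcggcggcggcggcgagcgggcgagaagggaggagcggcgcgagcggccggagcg
Adcy9, chr16:4420449-4420748, minus strand: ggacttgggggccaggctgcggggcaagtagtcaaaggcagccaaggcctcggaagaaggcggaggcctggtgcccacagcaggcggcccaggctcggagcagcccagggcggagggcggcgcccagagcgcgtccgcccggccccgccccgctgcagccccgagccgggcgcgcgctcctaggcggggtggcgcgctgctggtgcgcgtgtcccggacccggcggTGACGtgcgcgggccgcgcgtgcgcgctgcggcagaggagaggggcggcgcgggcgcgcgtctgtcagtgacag
Pde1a (start site 3 of 4), chr2:80038853-80039152, minus strand: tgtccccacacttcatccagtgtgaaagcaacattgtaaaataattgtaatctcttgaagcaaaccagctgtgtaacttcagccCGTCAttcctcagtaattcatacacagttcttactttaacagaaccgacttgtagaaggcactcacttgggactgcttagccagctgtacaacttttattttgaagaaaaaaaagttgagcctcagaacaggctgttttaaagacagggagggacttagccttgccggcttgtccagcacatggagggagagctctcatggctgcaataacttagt

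The full element was in 0 of the 17 windows, against 1.79% of all 32851 mouse windows, and the core was in 4 (23.5%), against 20.81% of all. The cores began 24 bases before the Adcy9 start, 166 bases before Pde1a start site 3, 28 bases before one Adcy7 start and 50 bases before one Pde4a start. The Adcy5 and Adcy9 windows were rich in G and C (79.0% and 78.3%, with 44 and 42 CpG pairs). That of Pde1a held 43.3% G and C with 3 CpG pairs, and that of Avpr2 held 1 CpG pair. A match in these letters is a description of the window and no evidence of binding.

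Gene counts per library ran from 45020173 to 62983791. The targeted gene Pkd1 stood at 30.01, 46.4 and 23.6 CPM (reads per 1000000 of the library, scaled with TMM factors) in the controls and 8.77, 9.003 and 10.01 in the KO libraries (log2 fold change −1.85 ± 0.24, SE, adjusted p = 0.00234). All controls came from one sequencing project and all KO libraries from another, and the effect of project cannot be told apart from that of genotype. Fold changes over all genes followed exon length and GC content. With the genes in 4 equal classes by exon length, the class medians of log2 fold change were 0.51, 0.11, −0.14 and −0.41 from short to long, and by GC content 0.44, 0.12, −0.11 and −0.47 from low to high. Fold changes are therefore given from 2 fits, edgeR's quasi-likelihood test and the same test after removing, as an offset, what a library's counts owe to length and GC content (the offset fit). For Pkd1 the offset fit gave a smaller decrease, −0.49 (adjusted p = 0.0135). Values with ± are log2 fold changes, KO minus control, with their SE (n = 3 each), and a gene counts as changed at an adjusted p under 0.05.

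Most cyclases and both Pde4 genes were lower in the Pkd1 KO kidneys, and Pde1a was higher. Of the 9 genes that could be tested, 7 fell (Adcy3, Adcy4, Adcy5, Adcy6, Adcy9, Pde4a and Pde4d), Pde1a rose and Adcy7 did not pass. Over all genes tested, 46.9% passed the test, 22.7% higher and 24.2% lower, and with upper-quartile scaling, under which the median over all genes was 0.19 in place of 0.03, the higher share of the calls went from 48.4% to 60.5%. The median log2 fold change was −0.92 over the 9 genes, −1.19 over the 6 cyclases and −0.73 over the 3 phosphodiesterases. In 8 of them the control and KO ranges did not overlap, as was the case for 61.2% of all genes tested. The offset fit called 3 of the 9 lower (Adcy5, Adcy6 and Adcy9) and 1 higher (Adcy7), where 18.1% and 16.7% of all genes were called lower and higher, and the median of the 9 was then −0.0023.

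**Figure D1:**
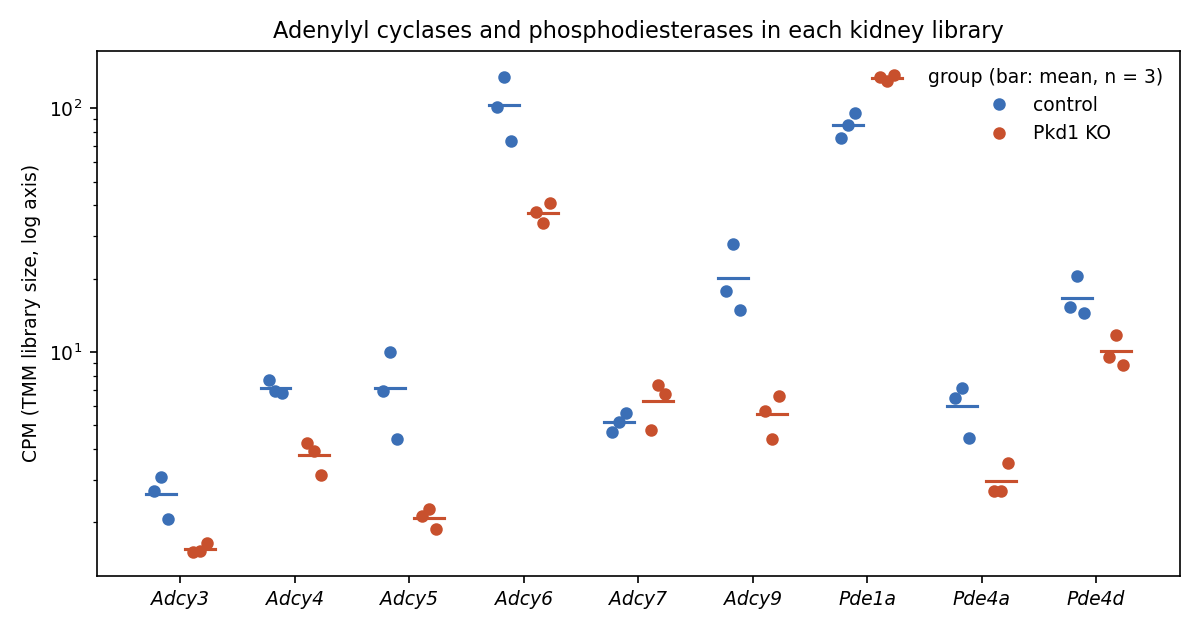
Level of each adenylyl cyclase and phosphodiesterase gene in each library, in CPM on a log axis, with 3 control points (blue), 3 Pkd1 KO points (red) and a bar at each group mean. The groups overlap only for Adcy7, and Pde1a is the one gene whose KO points all lie above its control points.

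Avpr2 could not be measured in the column that ignores strand. It held 0, 5 and 4 reads in control 1 to control 3 and 5, 10 and 7 in KO 1 to KO 3, under the low-count filter. Of its 2886 exonic bases, 2347 (81.3%) are shared with Arhgap4, a GTPase-activating protein gene on the opposite strand, and a read that lies in exons of both genes is counted for neither in that column. Summing the 2 strand columns brought back reads in Avpr2 exons, between 1170 and 1610 per control and between 1654 and 3145 per KO library, so that 99.7% had been left out. These counts do not tell which of the 2 genes the reads came from, because the libraries did not keep strand (49.1% to 49.96% of reads in the first strand column).

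In the summed columns the reads in Avpr2 exons came to 26.5, 18.2 and 32.5 CPM in the controls and 30.5, 34.04 and 45.2 in the KO libraries. KO 3 was the highest, control 2 the lowest, and control 3 lay above KO 1, so the groups overlapped. The log2 fold change was 0.51 ± 0.23 and did not pass (adjusted p = 0.0989, 95% interval −0.017 to 1.03), where 47.5% of all genes passed in this fit. It passed with the offsets (0.64, adjusted p = 0.0402) and, without offsets, once control 3 was left out (0.67, adjusted p = 0.0256). With offsets the call ended without control 1, control 2, KO 2 or KO 3 (adjusted p 0.103, 0.0565, 0.0935 and 0.152).

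Reads that Arhgap4 shares with no other gene differed less between libraries. They stood at 6.60, 6.12 and 5.27 CPM in the controls and 4.99, 5.18 and 5.60 in the KO libraries (−0.19 ± 0.17, adjusted p = 0.377, offset fit 0.72, adjusted p = 0.0135). Per base, the exons that both genes share held more reads than the rest of Arhgap4, by 10.9, 8.07 and 16.8 times in the controls and 16.4, 17.5 and 21.7 times in the KO libraries. The 539 Avpr2 bases outside the overlap held 31 reads in all, or 57.5 per kilobase, against 4829 per kilobase in the shared bases, 84.0 times more. The overlap and lengths are those of an older annotation than the counts may have used, these ratios carry no test, and the source of the shared reads cannot be told apart from them.

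**Figure D2:**
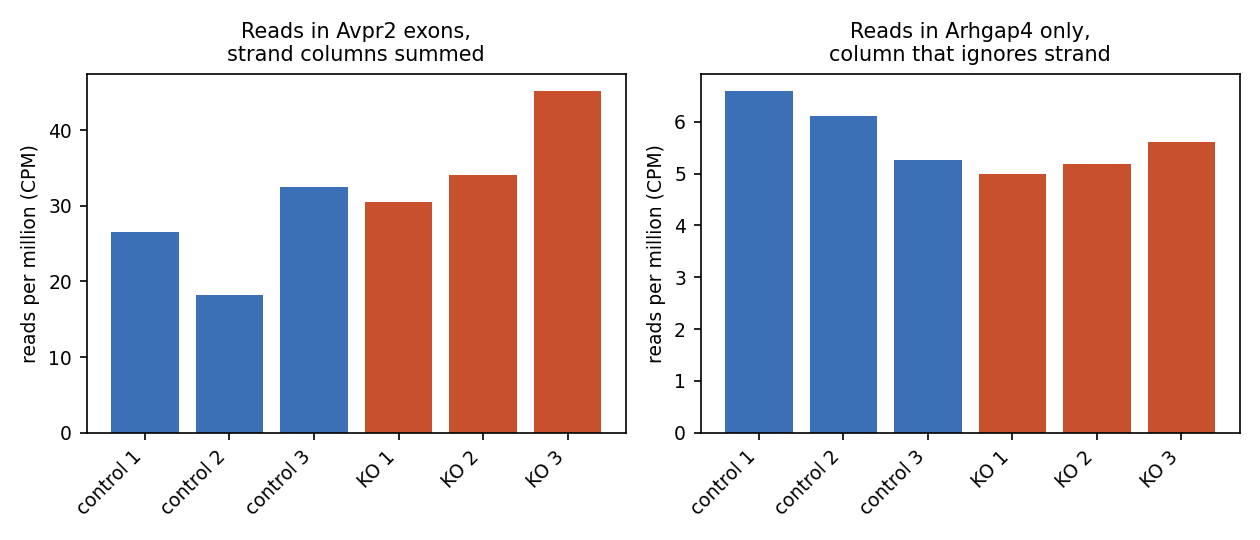
Reads in Avpr2 exons with the strand columns summed (left) and reads that belong to Arhgap4 alone (right), in CPM, 1 bar per library, controls in blue and Pkd1 KO in red. The left bars run from 18.2 (control 2) to 45.2 (KO 3), and the right bars stay between 4.99 and 6.60.

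Adcy6 and Adcy5 are the closely related cyclases that calcium inhibits, and Adcy6 is the main cyclase behind vasopressin's action in the collecting duct. Adcy6 stood at 101, 134 and 73.6 CPM in the controls and 37.5, 33.7 and 40.7 in the KO libraries. The controls were spread widely around their mean of 103 ± 30.2 (SD), the KO libraries were close together, and the lowest control lay above the highest KO library. Adcy6 fell 2.76-fold (−1.46 ± 0.21, adjusted p = 0.00259), and the call held in the offset fit at a smaller size (−0.59, adjusted p = 0.00572) and there with any 1 library left out. The short antisense gene Gm29331 covers 8.92% of the exonic bases of Adcy6, which left 18.5% of the reads in Adcy6 exons uncounted. These may come from either gene, and with them added the log2 fold change of Adcy6 was −1.32 (adjusted p = 0.00276).

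Adcy5 was present at a lower level, 6.95, 9.96 and 4.40 CPM in the controls and 2.12, 2.26 and 1.88 in the KO libraries. Its KO libraries all lay under the lowest control. It fell 3.41-fold (−1.77 ± 0.29, adjusted p = 0.003). With the offsets the value was −0.63 (adjusted p = 0.0285), a call that ended without any library but control 3 (adjusted p 0.0567 to 0.106).

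Adcy9, a widely expressed cyclase that forskolin hardly activates, had the largest decrease of the 9 genes. It stood at 17.8, 27.8 and 14.8 CPM in the controls and 5.74, 4.39 and 6.61 in the KO libraries. Every KO library held less than the lowest control. The decrease was 3.61-fold (−1.85 ± 0.26, adjusted p = 0.00256), and in the offset fit, where it was again called with any 1 library left out, −1.01 (adjusted p = 0.00366).

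Adcy4 and Adcy7 belong to the cyclases that Gβγ subunits stimulate. Adcy4 stood at 7.67, 6.93 and 6.78 CPM in the controls and 4.22, 3.94 and 3.14 in the KO libraries. The controls were close together and the groups did not overlap. Adcy4 fell 1.89-fold (−0.92 ± 0.18, adjusted p = 0.00478), and the offset fit did not call it (−0.44, adjusted p = 0.0759) except without control 2 (adjusted p = 0.0462).

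Adcy7, known for its expression in blood and immune cells, was the cyclase that did not fall. Its values were 4.70, 5.19 and 5.63 CPM in the controls and 4.81, 7.35 and 6.76 in the KO libraries. KO 1 lay among the controls and the other two KO libraries lay above them. The log2 fold change was 0.29 ± 0.20 (adjusted p = 0.266, 95% interval −0.17 to 0.74). The offset fit called it higher (0.88, adjusted p = 0.0147), a call that ended without control 1, KO 2 or KO 3 (adjusted p 0.061, 0.07 and 0.0518).

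Adcy3, the cyclase of olfactory cilia that is also found in primary cilia, was the lowest of the 6 in the column that ignores strand. It stood at 2.68, 3.08 and 2.06 CPM in the controls and 1.52, 1.53 and 1.64 in the KO libraries. The groups did not overlap. Its decrease of 1.67-fold (−0.74 ± 0.23, adjusted p = 0.0253) was called with all libraries and without control 3, and ended without any one of the other libraries (adjusted p 0.0512 to 0.0866), with upper-quartile scaling (0.0576) and with the strand columns summed (−0.48, adjusted p = 0.0655). The summed columns add the reads in exons shared with Cenpo on the opposite strand, 47.8% of the reads in Adcy3 exons. These reads may come from either gene. The offset fit turned the direction of Adcy3 (0.17, adjusted p = 0.507).

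Pde1a, a phosphodiesterase that calcium and calmodulin activate, was the most abundant phosphodiesterase of the 3 and the one that rose. It stood at 75.8, 85.05 and 95.8 CPM in the controls and 134, 129 and 137 in the KO libraries. All KO libraries lay well above the highest control. The increase was 1.56-fold (0.64 ± 0.14, adjusted p = 0.00656) and was called with any 1 library left out. The offset fit gave 0.27 and did not call it (adjusted p = 0.0968).

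Pde4a and Pde4d encode cAMP-specific phosphodiesterases of the rolipram-sensitive family. Pde4a stood at 6.49, 7.09 and 4.44 CPM in the controls and 2.69, 2.69 and 3.50 in the KO libraries, a decrease of 2.03-fold (−1.02 ± 0.23, adjusted p = 0.00775). Pde4d stood at 15.3, 20.5 and 14.4 CPM in the controls and 9.56, 11.8 and 8.84 in the KO libraries, a decrease of 1.66-fold (−0.73 ± 0.19, adjusted p = 0.0134). For both, every KO library lay below every control. The Pde4d call ended without KO 1 (adjusted p = 0.0549) or KO 3 (0.0615). Both values came to near 0 in the offset fit, −0.0023 for Pde4a (adjusted p = 0.993) and 0.039 for Pde4d (adjusted p = 0.858).

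**Figure D3:**
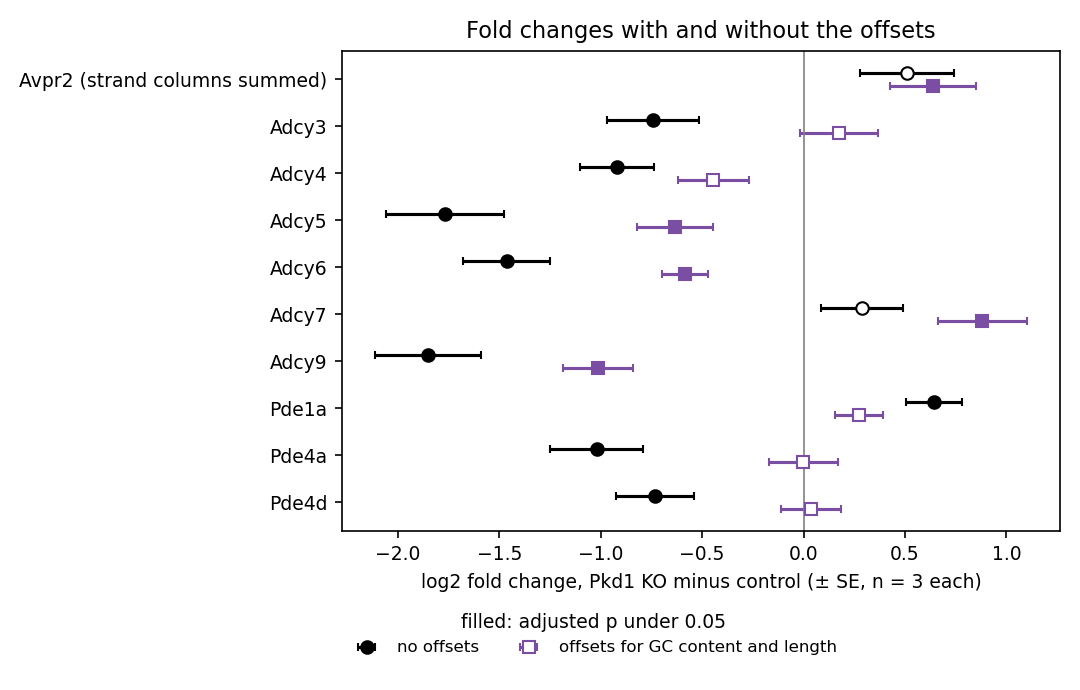
Log2 fold changes (Pkd1 KO minus control, ± SE, 3 libraries a group) from the fit without offsets (black circles) and with offsets for GC content and length (purple squares), filled where the adjusted p is under 0.05. The offsets move Adcy5, Adcy6 and Adcy9 to between −1.01 and −0.59 and bring Adcy3, Pde4a and Pde4d to 0.17, −0.0023 and 0.039.

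The genes that fell belong to classes of long, GC-rich genes that were lower as a whole. Adcy3, Adcy5, Adcy6 and Pde4a are in the top class of 4 for both exon length and GC content, where the median log2 fold change of 616 genes was −1.12. Against that median Adcy5 (−1.77) and Adcy6 (−1.46) lay lower, and Adcy3 (−0.74) and Pde4a (−1.02) higher. Adcy9 (−1.85) lay below the median of the 1103 genes of its class (−0.79), Pde4d (−0.73) was at that of its 981 (−0.75), and Adcy7 (0.29), of the same class as Pde4d, was above it. Adcy4 (−0.92) lay below the median of its 1096 (−0.34). Pde1a is in the lowest of the GC classes, and its 0.64 compares with a median of 0.45 over 1184 genes of its class.

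Most of the genes that fell shared an order of the controls. Control 2 was the highest and control 3 the lowest for Adcy3, Adcy5, Adcy6, Adcy9, Pde4a and Pde4d, and also for Pkd1. Adcy7 and Pde1a ran the other way from these in that control 3 was their highest control, and Adcy4 was highest in control 1. The controls had the same order on the first principal component of all tested genes (70.4% of variance), with control 2 farthest from the KO libraries and control 3 nearest. The SD of the controls was 30.2 CPM for Adcy6 against 3.51 in the KO libraries, and 6.80 against 1.12 for Adcy9. What part this has in the order was not tested.

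Levels of different genes were compared as CPM per kilobase of exon. In the controls Adcy6 (15.2 on average, 10.9 to 19.8) and Pde1a (14.2, 12.6 to 15.9) were the highest, and their ranges overlapped. Adcy9 (3.88, 2.85 to 5.35) came next, apart from both. Adcy4 (1.53), Pde4d (1.39) and Adcy5 (0.989) had ranges that overlapped from one to the next, as did Adcy5, Pde4a (0.785) and Adcy7 (0.768), and Adcy3 (0.417, at most 0.493) was the lowest.

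In the KO libraries Pde1a led with 22.2 (21.5 to 22.9), apart from Adcy6 with 5.50 (4.97 to 6.01). Adcy9 (1.07), Adcy7 (0.936), Pde4d (0.838) and Adcy4 (0.806) followed with overlapping ranges. Pde4a (0.387) lay below them, and Adcy5 (0.291) and Adcy3 (0.250) were the lowest, with ranges that met. That order changes with the strand columns summed, where the KO mean of Adcy3 (0.480), some of which may be Cenpo reads, was above those of Pde4a (0.353) and Adcy5 (0.265). Reads in Avpr2 exons, strand columns summed, came to 8.92 per kilobase in the controls and 12.7 in the KO libraries, rank 3 and rank 2 among the 10 genes with all strand columns summed, some of which may be Arhgap4 reads.

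The summed level of the 6 cyclases was 22.8 ± 6.18 CPM per kilobase in the controls (SD, n = 3) and 8.86 ± 0.59 in the KO libraries, and that of the 3 phosphodiesterases 16.4 ± 1.52 and 23.4 ± 0.63. Adcy6 made up 66.4% ± 2.002 of the cyclase sum in the controls and 62.04% ± 1.92 in the KO libraries. The share of Adcy9 went from 16.9% ± 1.39 to 12.1% ± 1.68, and that of Adcy7 from 3.58% ± 1.21 to 10.6% ± 2.501, with every KO library (8.13%, 13.1% and 10.6%) above every control (3.16%, 2.63% and 4.94%). Pde1a made up 86.6% ± 2.95 of the phosphodiesterase sum in the controls and 94.8% ± 0.54 in the KO libraries, while Pde4d went from 8.52% to 3.59% and Pde4a from 4.85% to 1.65%. These sums and shares follow from the levels above, which are without the offsets, and carry no test of their own. They leave out the other cyclase and phosphodiesterase genes. Pde1a, the only phosphodiesterase of the 3 that rose, was not called in the offset fit (0.27, adjusted p = 0.0968).

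**Figure D4:**
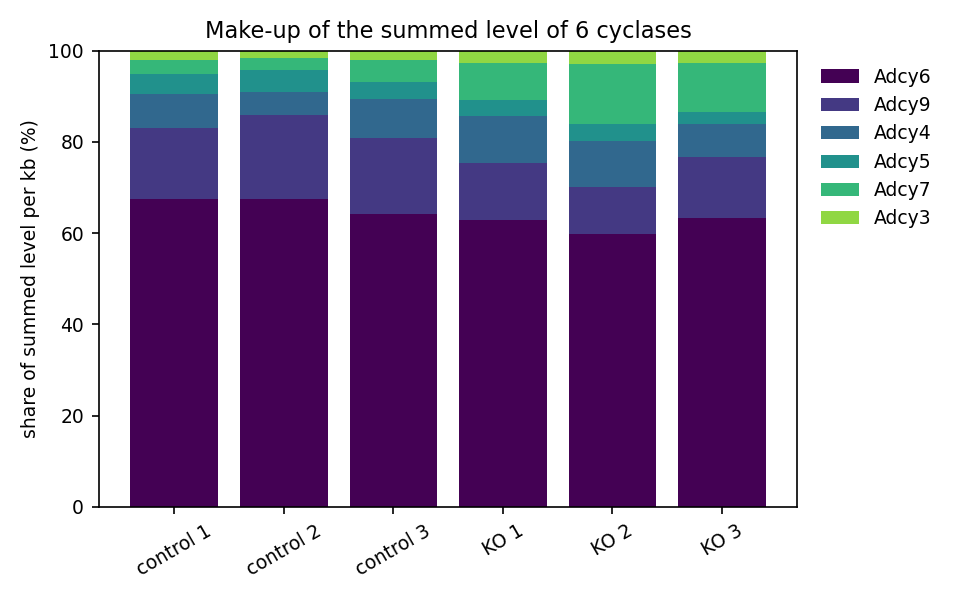
Share of each adenylyl cyclase gene in the summed CPM per kilobase of the 6, in percent, 1 bar per library. Adcy6 is the largest part of each bar (59.8% to 67.6%), and the Adcy7 part is 2.63% to 4.94% in controls and 8.13% to 13.1% in Pkd1 KO libraries.

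Genes whose profile over the 6 libraries lay nearest to a cyclase or phosphodiesterase were found by the root mean square distance of centred log2 CPM among 12874 protein-coding genes. Nearest to Adcy6 were the lipid transporter Abca7 (distance 0.042), the RNA-binding protein gene Hnrnpa0 (0.046) and the actin regulator Wasf2 (0.047). Adcy9 had no neighbour as close, with the collagen prolyl hydroxylase P3h2 at 0.097, the transcription factor Pou3f3 at 0.11 and Rab11fip1 at 0.12. Nearest to Adcy7 was C3ar1 (0.05), the complement C3a receptor of myeloid cells, then Sass6 (0.059) and Serpinf1 (0.066). Nearest to Pde1a were the exonuclease Exo5 (0.028), Ccdc17 (0.031) and Rbm43 (0.046).

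The other genes of the pathway were read from lists in the same fit, and parentheses below give the log2 fold change ± SE and then the offset fit, with its adjusted p where that did not pass. The median log2 fold change of each list is given beside its counts, and that of all genes was 0.03. For comparison with the counts, 22.7% of all genes tested were called higher and 24.2% lower, and 16.7% and 18.1% in the offset fit. Of 3 other cyclases tested, Adcy1, a calcium-stimulated cyclase, fell (−1.78 ± 0.29, offset fit −0.73) from 17.1 ± 7.40 to 4.97 ± 0.31 CPM, and Adcy2 and Adcy10 did not pass (median 0.051). Of 15 other phosphodiesterases 2 rose and 3 fell (median −0.40, and 0 rose without control 1 or any one KO library). In the offset fit 2 rose and 1 fell, and the median turned to 0.031. The high-affinity cAMP enzymes Pde8a (−0.78 ± 0.16, offset fit −0.79) and Pde8b (−0.57 ± 0.17, offset fit −0.18, adjusted p = 0.373) fell. Pde4b (0.40 ± 0.14, offset fit 0.79), an inducible enzyme of immune cells among others, and Pde7a (0.38 ± 0.13, offset fit 0.39) rose. Without control 1, KO 1, KO 2 or KO 3 neither of these increases was called, nor was Pde4b without control 3 or Pde7a without control 2 (adjusted p 0.0731 to 0.181). Pde8b was not called without control 1, KO 1 or KO 2 (0.0608 to 0.0986) or with upper-quartile scaling (0.0742).

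Of 16 other receptors that signal through Gs, 6 fell and 1 rose (median −0.66, 3 fell without KO 1 or KO 2, and 2 fell and 0 rose in the offset fit). The adrenomedullin and CGRP receptor gene Calcrl rose (1.05 ± 0.20, offset fit 0.32, adjusted p = 0.0746), and the parathyroid hormone receptor gene Pth1r (−1.28 ± 0.18, offset fit −0.68) and Vipr1 (−1.28 ± 0.26, offset fit −0.55, adjusted p = 0.152) fell. Pth1r went from 709 ± 62.8 to 292 ± 60.4 CPM. Of 11 receptors that restrain cAMP or signal around it, 5 fell and 1 rose (median −0.53, 3 fell without any one KO library or with upper-quartile scaling). The calcium-sensing receptor gene Casr, which lowers cAMP in the thick ascending limb, fell from 47.4 ± 18.8 to 8.996 ± 1.46 CPM (−2.40 ± 0.29, offset fit −1.97), the V1a receptor gene Avpr1a fell (−0.72 ± 0.15, offset fit −0.90), and Lpar1 rose (0.75 ± 0.23, offset fit 0.57) unless control 1 or any KO library was left out (adjusted p 0.0557 to 0.0957).

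G protein genes included 7 that fell and 0 that rose of 18 (median −0.29), although with upper-quartile scaling 3 rose and 5 fell, and 2 rose in the offset fit and without control 3. Gnas, which encodes the Gs α subunit, was counted without 95.1% of the reads in its exons. These lie in exons shared with genes on the opposite strand and may not all come from Gnas. Its fall of −1.69 ± 0.24 (offset fit −0.49, adjusted p = 0.104) became −0.82 (adjusted p = 0.00348) with the strand columns summed. Gnaz fell as well (−1.89 ± 0.29, offset fit −1.53). Of 14 kinase, arrestin and RGS genes that switch receptors and G proteins off, 3 rose and 4 fell, against 2 and 0 in the offset fit, and their median of −0.09 became 0.067 with upper-quartile scaling. Rgs4 (1.12 ± 0.27, offset fit 0.62) and Rgs2 (0.83 ± 0.18, offset fit 0.37, adjusted p = 0.0524) rose, and the arrestin gene Arrb1 (−1.27 ± 0.21, offset fit −0.25, adjusted p = 0.0804) and Grk3 (−0.95 ± 0.23, offset fit −0.35, adjusted p = 0.125) fell.

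Downstream of cAMP, 3 of 11 protein kinase A and Epac genes rose and 4 fell (median −0.23). Those with the largest increases encode inhibitors of the kinase, Pkia (1.54 ± 0.23, offset fit 0.79), which went from 49.2 ± 15.9 to 143 ± 5.80 CPM, and Pkib (1.18 ± 0.27, offset fit 1.04). The regulatory subunit genes Prkar1b (−1.36 ± 0.25, offset fit −0.87) and Prkar2a (−0.96 ± 0.20, offset fit −0.71) fell. Of 11 anchoring protein genes 3 fell and 0 rose (median −0.35, 1 fell without KO 2 or KO 3, and in the offset fit), led by Akap13 (−1.77 ± 0.35, offset fit −0.61) and Akap9 (−1.53 ± 0.53, offset fit −0.76, adjusted p = 0.125), whose value without control 2 was −0.52 and whose call ended without control 2 or any one KO library (adjusted p 0.0572 to 0.134) and with upper-quartile scaling (0.0588).

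Of 10 CREB family and coactivator genes 7 fell and 1 rose (median −0.95), against 1 and 1 in the offset fit (median −0.19). The coactivator genes Crtc1 (−1.43 ± 0.29, offset fit −0.20, adjusted p = 0.270) and Crtc3 (−1.38 ± 0.30, offset fit −0.19, adjusted p = 0.381) fell, and Crem (1.05 ± 0.28, offset fit 0.83), which encodes cAMP-responsive activators and repressors, rose except without control 1 or KO 2 (adjusted p 0.0535 to 0.0604). Of 15 genes known as immediate CREB targets 2 rose, Crem and Atf3 (1.96 ± 0.33, offset fit 1.78), and 3 fell, among them Sik1 (−1.30 ± 0.19, offset fit −0.63) and the gluconeogenic gene Pck1 (−0.94 ± 0.17, offset fit −0.78). The median of this list was 0.043. Those counts moved with single libraries, to 5 higher and 2 lower without control 1, to 1 higher without KO 2 and to 5 lower without control 2 or control 3. The cAMP exporter gene Abcc4 fell (−1.12 ± 0.26, offset fit −0.75).

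Of 12 transport genes that vasopressin regulates, 8 fell and 0 rose (median −0.65, 5 fell in the offset fit and with upper-quartile scaling, 4 without control 1 or KO 1 and 5 without KO 2). The distal sodium chloride transporter gene Slc12a3 (−1.81 ± 0.24, offset fit −0.76) and the sodium channel subunit gene Scnn1a (−1.26 ± 0.17, offset fit −0.63) had the largest decreases. Aqp2, named for its place in the pathway, stood at 332, 350 and 318 CPM in the controls and 176, 169 and 296 in the KO libraries (−0.64 ± 0.22, adjusted p = 0.0403, offset fit −0.45, adjusted p = 0.116). KO 3 lay near the controls and was also the library with the most reads in Avpr2 exons. Among the controls the order was reversed, as control 2 had the fewest of these reads (18.2 CPM, strand columns summed) and the most Aqp2 (350 CPM). Control 3 had the most of these reads among the controls (32.5 CPM) and the least Aqp2 (318 CPM). A relation between them was not tested. Of 14 calcium entry and calmodulin genes, 2 rose and 6 fell (median −0.60, 10 fell without control 3, 3 without KO 3 and in the offset fit). Calm2 (0.93 ± 0.17, offset fit 0.10, adjusted p = 0.515), which encodes calmodulin, the activator of Pde1a, rose. Itpr3 (−1.37 ± 0.33, offset fit −0.20, adjusted p = 0.462, and −0.88 without control 2) and the channel gene Trpv4 (−1.13 ± 0.18, offset fit −0.34) fell.

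**Figure D5:**
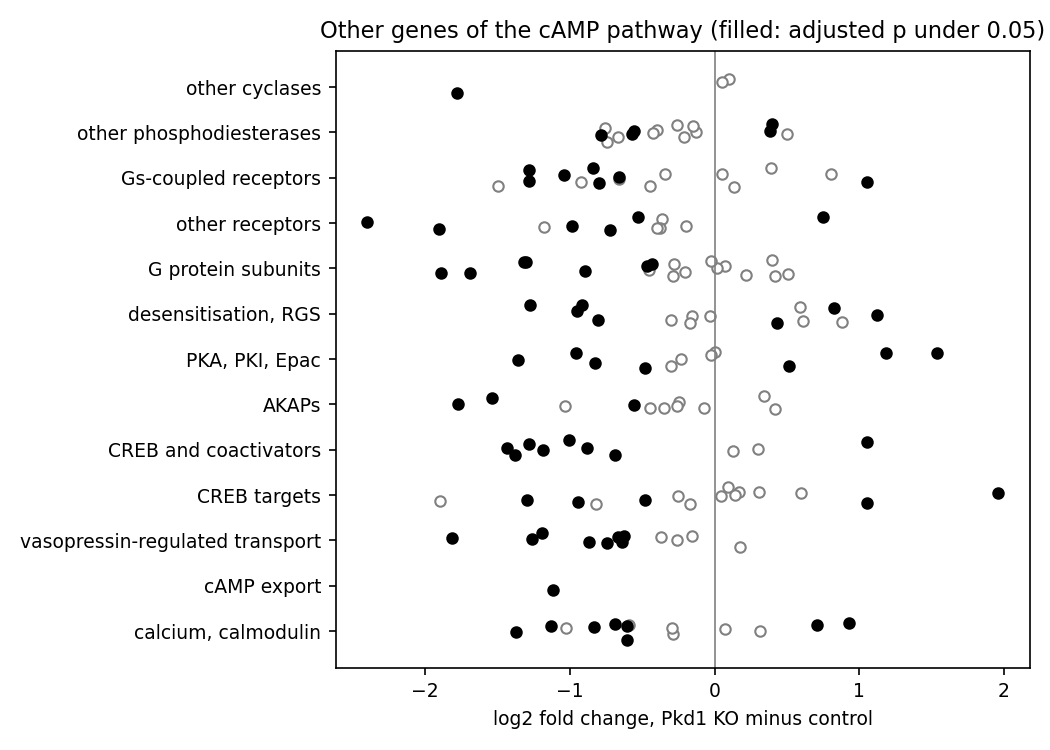
Log2 fold change (Pkd1 KO minus control, no offsets) of each tested gene in 13 lists of the cAMP pathway, 1 point per gene, filled black where the adjusted p is under 0.05 and open grey otherwise. Casr lies farthest to the left at −2.40 and Atf3 farthest to the right at 1.96, and the transport row holds no filled point to the right of 0.

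Marker genes of kidney cell types differed between the groups too, and their part in the results above was not tested. The counts below compare with 22.7% of all genes tested called higher and 24.2% lower, and 16.7% and 18.1% in the offset fit. Principal cell markers summed to 905 to 1045 CPM in the controls and 641 to 794 in the KO libraries, with 6 of 10 lower (2 without control 1 or any KO library, 3 with upper-quartile scaling) and Avpr2 itself not testable. Distal convoluted tubule markers summed to 1467 to 1967 and 627 to 739 CPM (5 of 6 lower), thick ascending limb markers to 3826 to 4746 and 2058 to 2587 (3 of 7 lower, 1 higher), and intercalated cell markers to 281 to 360 and 247 to 252 (4 of 8 lower, 1 higher). Endothelial markers fell in 7 of 8 cases and rose in 1, Emcn (0.58, adjusted p = 0.0181). They summed to 603 to 655 CPM in the controls and 401 to 430 in the KO libraries. Of these markers 4 fell and 0 rose without KO 2 or KO 3, and 3 fell and 0 rose in the offset fit. Podocyte markers fell in 4 of 5 cases, 215 to 385 against 164 to 190 CPM (1 without control 1, KO 1 or KO 3, and in the offset fit). Macrophage markers summed to 119 to 158 CPM in the controls and 210 to 342 in the KO libraries, with 6 of 9 higher and Csf1r lower (2 higher without KO 2, 3 without KO 3). That gap rests on Lyz2 (23.1 against 150 CPM on average): the other 8 summed to 107 to 132 and 112 to 153 CPM, which overlap. T and B lymphocyte markers summed to 14.8 to 17.2 and 25.5 to 38.5 CPM (5 of 8 higher, 3 without control 3, KO 2 or KO 3 and in the offset fit). Most of these lymphocyte sums was Ptprc in both groups. The other 7 lymphocyte markers summed to 2.64 to 4.10 CPM in the controls and 6.43 to 8.89 in the KO libraries, which do not overlap. KO 1, the KO library lowest in Adcy7, was also the lowest of the KO libraries in both immune lists. Among the controls it was the other way, as control 1, lowest in Adcy7 (4.70 CPM), had the highest sums of both lists (158 and 17.2 CPM). For the lymphocyte list that place rests on Ptprc (14.5 CPM in control 1). Without Ptprc, control 1 had the lowest lymphocyte sum of the controls (2.64 CPM). Proximal tubule markers gave 6 of 10 lower and 2 higher (0 higher in the offset fit), while their sum went from 33292 to 39602 up to 48034 to 56750 CPM. That rise is one of Kap (19646 against 43334 CPM on average), and the other 9 summed to 13021 to 19316 CPM in the controls and 8354 to 10685 in the KO libraries. Fibroblast, pericyte and smooth muscle markers gave 5 of 10 lower and 2 higher (3 lower without any one KO library, and 2 lower and 3 higher in the offset fit), with sums of 366 to 439 and 321 to 425 CPM that overlapped. Tagln entered these sums at only 0.90 and 1.45 CPM on average, because 99.0% of the reads in its exons were left out as shared. With the strand columns summed Tagln was called higher (1.53, adjusted p = 0.00755), and the list gave 4 lower and 3 higher. The added reads may come from another gene. The median log2 fold changes of these lists, in the order given, were −0.63, −1.06, −0.42, −0.74, −0.78, −0.95, 0.63, 0.99, −0.92 and −0.46.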

How the data were processed

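The authors deposited raw counts of reads per gene, 1 table per sequencing run and 7 in all, with no normalization. The submitters' processing notes name FastQC 0.11.8, cutadapt 4.0, STAR 2.6.1e and the build GRCm39, and name no gene annotation. The 2 runs of control 1 were summed and counted as 1 library. The column that ignores strand was used. The 4 lines that name no gene, 22.9% to 26.3% of reads, were left out.

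Genes passing edgeR's filter (filterByExpr, edgeR 4.0.16, R 4.3.3) were scaled with TMM and tested with its quasi-likelihood test, with Benjamini-Hochberg adjustment over all 18273 tested genes. Symbols (52073 matched), exon lengths and GC content were taken from GENCODE M21, made for an earlier build. For the offset fit a robust loess (span 0.3) of each library's log2 values on GC content and log2 exon length was used as an offset, for 17785 genes, and a true change that follows length or GC content would also be removed by it.

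Samples were grouped by their titles. Nothing in the sources used here says whether the samples of a group were separate animals, so p-values measure the spread between these samples, which may be technical. Members and lists were chosen with earlier results of these data known. Named are all 10 genes and, from each other list, up to 2 called genes with the largest increase and up to 2 with the largest decrease with mean log2 CPM not under 0, and for profile neighbours the 3 nearest; 1 gene that this rule names is not reported here. Adcy8, Pde2a, Drd1, Drd5, Crhr2, Sstr1 and Gng10 were under the filter. Summed strand columns, the offset fit with each library left out, and marker sums without 1 gene were added after seeing the data.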

Additional observations from a re-analysis of the deposited data

How the results depend on the processing

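Of the 9 genes tested, Adcy4, Adcy5, Adcy6, Adcy9, Pde1a and Pde4a kept their direction and their call with size factors of DESeq2, upper-quartile scaling, no filter, DESeq2's own test, the larger run of control 1 alone, the strand columns summed, the replicate block and each library left out. The offsets for GC content and length had the largest effect. They left 3 genes lower, as did the offsets with the replicate block and with the strand columns summed, which called 2 higher, Avpr2 and Adcy7, and with each library left out they left 2 to 3 lower and 0 to 1 higher. Leaving out 1 library without offsets gave 5 to 7 lower. Adcy3 turned to 0.17 with the offsets and with offsets and block, to 0.36 with offsets and summed strand columns, and to 0.20, 0.15, 0.20, 0.19, 0.16 and 0.16 with offsets and control 1, control 2, control 3, KO 1, KO 2 and KO 3 left out in turn. Pde4d turned to 0.039 with the offsets, 0.033 with offsets and block, 0.014 with offsets and summed strand columns, and 0.11, 0.054 and 0.13 with offsets without control 3, KO 1 and KO 3. Pde4a turned to 0.12, 0.057, 0.045 and 0.042 with offsets without control 1, control 3, KO 1 and KO 2. The cause was not tested.

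Over all genes, 4148 were higher and 4431 lower. Leaving out 1 library gave 2340 to 4877 higher and 2731 to 5441 lower, lowest without KO 2 for both, and the offsets with 1 library left out gave 1397 to 3651 and 1504 to 3923. Single values were 1708 and 2018 without control 1, 1948 and 2097 without KO 1, and 1697 and 1775 without KO 3, and without offsets 2635 higher without control 1. The replicate block called 3581 higher and 3816 lower, with 6 of the genes described lower and 1 higher (Adcy3 lost, adjusted p = 0.0625), and with offsets 2674 and 2824. Same-numbered control and KO samples did not deviate together (r 0.038, −0.084 and −0.029 over genes), and not every sample correlated best with its own number, so the numbers were not read as pairs. Fewer samples are part of each setting that leaves 1 out. Depth limits Adcy3 most, with 75 to 178 counted reads per library. The reads in exons that Avpr2 shares with Arhgap4, and Adcy3 with Cenpo, cannot be assigned to either gene of the pair.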
